A study of Homo sapiens with 6 samples.

Results

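The chromosome 19 zinc finger genes examined here are the protein-coding genes of chromosome 19 whose symbol begins with ZNF. This rule took 249 of the 58735 genes in the expression table, and it used no measured value. The RNA came from Hep-G2, a long-used human line of liver cancer origin that the labels describe as hepatocytes from HCC (hepatocellular carcinoma). The sh-CLGN cells (3 libraries; genotype CLGN knock down, treatment shCLGN) carried a short hairpin RNA against CLGN, the gene of the endoplasmic reticulum chaperone calmegin. The sh-NC cells (3 libraries; genotype WT, treatment shcontrol) carried a control hairpin. Both hairpins were delivered by lentivirus with puromycin selection, and all 6 libraries carry the batch label 0DAY. Each group holds 1 hairpin, so the hairpin, the culture and the loss of CLGN cannot be told apart, and nothing states that the libraries came from separate cultures, so p-values measure the spread between libraries, which may be technical.

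Most ZNF proteins of chromosome 19 join a row of C2H2 zinc fingers, which read DNA sequence, to an amino-terminal KRAB domain. The KRAB domain recruits TRIM28 (KAP1), which brings in the histone methyltransferase SETDB1 and HP1 proteins, and the chromatin at the bound site is silenced. Many of these proteins bind transposable elements. The genes arose by tandem duplication and lie in clusters along the chromosome, so neighbouring members often share sequence.

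Levels were given as FPKM, a read number divided by gene length and by the size of the library. Reads per gene recovered from these values summed to 14955816 to 16244639 per library. CLGN itself ranged from 21.0 to 26.1 FPKM in sh-NC but from 8.60 to 9.48 FPKM in the knockdown libraries (log2 change -1.31, limma adjusted p = 8.35e-06). The 9 hepatocyte or liver tumour markers, ALB and AFP among them, summed to 7069 to 7306 FPKM in sh-NC and 7171 to 7635 FPKM in sh-CLGN, with 3 higher and 5 lower of 9 tested, among them AFP at 1.42 and ALB at 0.536 of the control level. The 7 fibroblast markers summed to 6.85 to 8.53 FPKM in sh-NC and 62.1 to 64.2 FPKM in sh-CLGN, with 5 of 5 tested higher, while DCN and THY1 had at most 1 read in any library. The 4 leukocyte markers summed to 1.20 to 1.53 and 0.489 to 0.696 FPKM, and the 3 endothelial markers to 3.33 to 3.67 and 2.38 to 2.65 FPKM. PTPRC, CD3E and VWF had at most 4 reads in any library. Mitochondrial reads took 3.62% ± 0.387 of the sh-NC total but 5.61% ± 0.170 of the sh-CLGN total (SD, n = 3), and reads of genes under the expression filter were 0.760% ± 0.0186 and 1.18% ± 0.00343. The part of these shifts in the results below was not tested. In bulk RNA, fewer cells expressing a gene and less RNA per cell cannot be told apart.

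Promoter sequences of 6 members are printed to show 2 features that recur among the duplicated genes. ZNF880 and ZNF160 (cluster 8) and ZNF91 and ZNF737 (cluster 4) were higher in sh-CLGN, while ZNF586 (cluster 9) and ZNF317 (cluster 2) were lower. Each sequence runs from 250 bases before to 30 bases after the RefSeq start of the gene (GRCh38.p14). Capitals mark CCGGAAG, a core of ETS factor sites, and CCAAT, the CCAAT box, on either strand (CTTCCGG and ATTGG on the other strand). These 2 sets of letters cannot overlap each other, but CCGGAAG can overlap its own complement.
ZNF880 promoter (chr19:52369673-52369952, plus strand): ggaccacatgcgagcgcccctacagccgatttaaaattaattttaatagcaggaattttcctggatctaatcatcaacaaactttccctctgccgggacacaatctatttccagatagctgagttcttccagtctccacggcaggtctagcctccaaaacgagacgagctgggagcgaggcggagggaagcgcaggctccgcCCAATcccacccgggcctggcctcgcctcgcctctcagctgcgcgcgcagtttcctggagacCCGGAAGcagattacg
ZNF160 promoter (chr19:53103393-53103672, minus strand): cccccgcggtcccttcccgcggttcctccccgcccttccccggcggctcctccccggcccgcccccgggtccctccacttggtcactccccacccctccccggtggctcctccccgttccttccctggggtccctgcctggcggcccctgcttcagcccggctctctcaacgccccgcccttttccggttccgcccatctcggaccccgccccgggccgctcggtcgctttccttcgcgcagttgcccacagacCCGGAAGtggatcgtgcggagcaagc
ZNF91 promoter (chr19:23395442-23395721, minus strand): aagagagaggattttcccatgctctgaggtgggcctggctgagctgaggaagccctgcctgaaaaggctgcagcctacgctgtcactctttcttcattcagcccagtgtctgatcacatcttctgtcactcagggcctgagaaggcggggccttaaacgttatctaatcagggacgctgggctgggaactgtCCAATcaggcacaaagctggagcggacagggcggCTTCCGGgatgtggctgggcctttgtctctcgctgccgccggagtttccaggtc
ZNF737 promoter (chr19:20565752-20566031, minus strand): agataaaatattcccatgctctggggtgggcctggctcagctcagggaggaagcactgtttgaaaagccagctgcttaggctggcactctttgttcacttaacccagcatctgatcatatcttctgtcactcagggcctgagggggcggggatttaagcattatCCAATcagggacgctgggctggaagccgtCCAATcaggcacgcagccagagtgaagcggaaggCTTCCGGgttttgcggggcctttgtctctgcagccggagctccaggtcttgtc
ZNF586 promoter (chr19:57769426-57769705, plus strand): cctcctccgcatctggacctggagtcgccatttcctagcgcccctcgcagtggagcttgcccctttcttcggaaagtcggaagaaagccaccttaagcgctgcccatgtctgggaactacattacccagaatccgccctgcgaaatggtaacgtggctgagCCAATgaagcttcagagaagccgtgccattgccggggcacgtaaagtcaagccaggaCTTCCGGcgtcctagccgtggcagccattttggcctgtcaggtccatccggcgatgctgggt
ZNF317 promoter (chr19:9140147-9140426, plus strand): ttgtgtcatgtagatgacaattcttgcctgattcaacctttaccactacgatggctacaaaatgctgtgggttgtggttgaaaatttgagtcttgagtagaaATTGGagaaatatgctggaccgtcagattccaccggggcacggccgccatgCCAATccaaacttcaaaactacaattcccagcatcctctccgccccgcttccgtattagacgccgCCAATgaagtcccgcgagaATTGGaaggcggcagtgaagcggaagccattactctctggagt

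In these windows, ZNF91 and ZNF737 shared a run of 24 bases, against 7 to 13 bases in the other pairs of the 6. RefSeq held a promoter for 217 of the 249 members. In windows of 300 bases, from 250 before to 50 after the start, CCGGAAG was found in 99 of the 217 members (45.6%), in 34.7% of 213 promoters of ZNF genes on other chromosomes and in 12.8% of 22199 protein-coding promoters (10.3% of all 35116 promoters). CCAAT was found in 53.9% of member promoters, 43.7% of those of ZNF genes on other chromosomes and 34.7% of protein-coding promoters (34.6% of all). The matches followed the clusters, since CCAAT was in 29 of 29 promoters of cluster 4 and 23 of 25 of cluster 3, but in 10 of 33 of cluster 8. CCGGAAG was in 21 of 33 promoters of cluster 8 and 33 of 54 of cluster 9. The other 2 motifs, searched on both strands, were less frequent. AAGATGGC, the YY1 motif, was in 6.45% of member promoters (2.89% of all), and the NRF1 motif in 2.30% (1.24% of all). AAGATGGC can overlap CCGGAAG. A match describes the letters in the window and does not show a bound factor.

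In annotated proteins (GENCODE 29), the members had a median of 12 C2H2 finger patterns, up to 39 in ZNF729, and a median length of 588 residues (125 to 1365). A KRAB-box pattern was found in 181 members and not in 68, and a SCAN pattern, which marks an oligomerization domain, in ZNF444 and ZNF274. A pattern can miss diverged copies, and ZNF625-ZNF20, ZNF738 and ZNF816-ZNF321P held no finger pattern.

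The members were expressed at low levels. Their median was 1.31 FPKM over all 6 libraries, 103 members were under 1 FPKM and 5 were over 10 FPKM. No read was found on 11 members, and 8 more had fewer than 10 reads over the 6 libraries. These 19 silent or nearly silent genes included 7 of cluster 4, such as ZNF99 and ZNF208. The other 230 members were compared on recovered reads, a filter that does not use the groups. A stricter filter, 1 FPKM or more in at least 3 libraries, kept 153 members, and 35 of these were at or over 1 FPKM in all sh-CLGN libraries but not in all sh-NC libraries (1 the other way), so counts on these 153 are given as a description beside the counts on reads.

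On reads, more members were higher than lower in sh-CLGN. Of 230 members, 119 were higher and 26 lower at an adjusted p of at most 0.05 (voom in limma, Benjamini-Hochberg over 22042 genes), against 26.1% higher and 25.4% lower among all genes tested. The shares among members were 51.7% and 11.3%. With a log2 change of at least 1 as well, 39 members were higher and 2 lower (all genes, 12.8% and 4.6%), and the 2 lower were ZNF628 and ZNF586. The median log2 change was 0.40 over members and 0.11 over all genes.

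On log2(FPKM + 1), where changes of low genes are understated, 74 of 153 members were higher and 22 lower (limma adjusted p, over 13074 genes), against 26.7% and 39.0% of all genes. Past both thresholds were 2 higher members, ZNF880 and ZNF260, and 0 lower members (all genes, 3.09% and 3.19%). At a pseudocount of 0.1 FPKM the counts past both thresholds were 18 higher and 2 lower. The libraries of the groups did not overlap in 107 of 153 members, a share close to that of all tested genes (70.2%). Among the 115 members at 1 FPKM or more in all 6 libraries, 46 were higher and 22 lower with a median of 0.17, while of 11140 genes that met the same condition 23.3% were higher and 43.2% lower with a median of -0.12.

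The counts depended on the scaling, and the direction of the median did not turn. The library sizes behind the FPKM values were 0.933 to 0.953 times the read totals in sh-NC libraries and 1.07 to 1.08 times in sh-CLGN libraries. Scaling by read totals moved the median of all genes by 0.17 on log2(FPKM + 1) and by 0.20 on reads, and the calls on reads became 142 higher and 14 lower, against 119 and 26 (on FPKM 102 and 12, against 74 and 22). The median of the members stood 0.30 above that of all genes under both scalings on reads. Members took 2277 ± 75.7 RPM (reads scaled to a common library total) in sh-NC, against 3073 ± 56.6 RPM in sh-CLGN (SD, n = 3), and their summed level was 486 ± 6.11 and 539 ± 5.61 FPKM.

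The plot of fold change by position shows the calls along the chromosome.

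**Figure D1:**
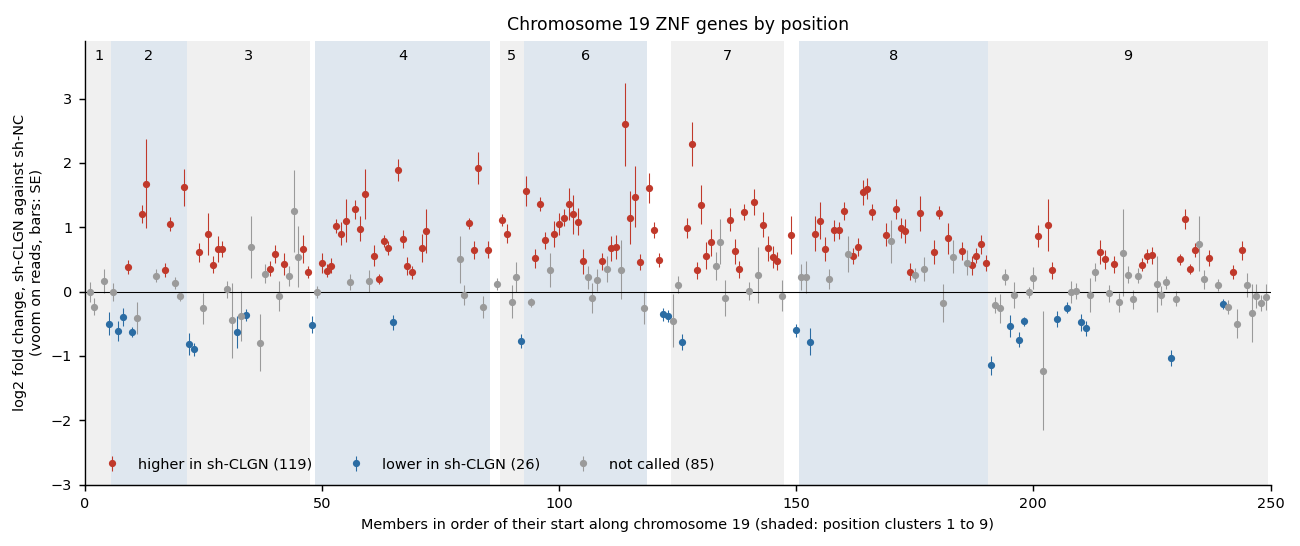
Log2 fold change (sh-CLGN against sh-NC, voom on reads, bars are SE) of the 230 tested members in the order of their starts along chromosome 19, with position clusters 1 to 9 shaded. Of these, 119 were higher (red), 26 lower (blue) and 85 not called (grey), and red points prevail in clusters 4, 6, 7 and 8 while cluster 9 lies around 0.

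Members were grouped by position, with a new cluster wherever neighbouring starts lay more than 1 Mb apart. This gave 9 clusters of at least 5 members (238 members), and 11 members lay outside them. Clusters 4, 6, 7 and 8 held most of the higher calls, whereas cluster 9, the largest, had a median near 0. Genes of a cluster are not replicates, so the counts and medians below are descriptions.

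Cluster 8 (40 members, ZNF175 to ZNF331, chromosome 19, 51571298 to 53580269, GRCh38) had 25 of 36 members higher and 1 lower on reads, with a median of 0.68. Its summed level was 32.5, 31.0 and 38.1 FPKM in the control replicates 1, 2 and 3, but 57.8, 55.8 and 57.4 FPKM in the knockdown libraries. The groups did not overlap, and the mean rose from 33.9 ± 3.74 to 57.0 ± 1.04 FPKM (SD, n = 3). The KRAB pattern was present in 37 of its 40 members. The lower member was ZNF649, which lies among higher neighbours such as ZNF613 and ZNF350 (names chosen after their values were seen).

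Cluster 4 (37 members, ZNF101 to ZNF254, chromosome 19, 19668796 to 24129961) holds the ZNF91 family, which expanded in primates. Of its 30 tested members 23 were higher and 1, ZNF738, was lower (median 0.65). Its summed level was 58.2, 54.1 and 65.2 FPKM in sh-NC and 86.6, 83.1 and 76.2 FPKM in sh-CLGN, with no overlap. Cluster 6 (26 members, ZNF565 to ZNF573, chromosome 19, 36182060 to 37817300) had 18 of 26 higher and 0 lower (median 0.69, summed level 32.4 ± 2.19 and 42.9 ± 0.645 FPKM). ZNF540 had the largest fold there, 2.60 on the log2 scale, on 1 to 4 reads per sh-NC library and 11 to 17 per sh-CLGN library, so its size is poorly fixed. Cluster 7 (24 members, ZNF575 to ZNF296) had 15 of 24 higher and 1 lower (median 0.55, summed level 35.7 ± 1.45 and 39.9 ± 0.802 FPKM).

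Cluster 9 (59 members, ZNF628 to ZNF446, chromosome 19, 55476332 to 58481230), near the long-arm end, differed from these in its counts. Of 57 tested members 16 were higher and 10 lower, with a median of 0.01. Its summed level was 197, 196 and 186 FPKM in sh-NC and 186, 182 and 188 FPKM in sh-CLGN, and the groups overlapped. In RPM, which uses read totals and no gene length, its sum was 843, 840 and 817 in sh-NC. In sh-CLGN it was 959, 941 and 952 RPM, without overlap (ratio of means 1.14, against 1.90 in cluster 8). The deposited library size over the read total was itself 1.14 times higher in sh-CLGN than in sh-NC. With read totals as library sizes, the median log2 change on reads was 0.20 in cluster 9 and 0.30 over all genes. The reading of the sum of cluster 9 thus depends on the measure. With a gap of 0.5 Mb it split into a part of 16 members (3 higher and 5 lower of 15, median -0.21) and a part of 43 members (13 higher and 5 lower of 42, median 0.11). Cluster 9 also held 10 of the 26 lower members. Its shares on reads were 28.1% higher and 17.5% lower, against 26.1% and 25.4% of all genes.

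Clusters 1, 2, 3 and 5 were mixed. Cluster 1 (5 members) had 0 higher and 1 lower of 4, with a median of -0.12 that turned to 0.07 with read totals as library sizes. Cluster 2 (16 members) had 6 higher and 3 lower of 14, cluster 3 (26 members) 10 higher and 4 lower of 25, and cluster 5 (5 members) 2 higher and 1 lower of 5. Their medians were 0.19, 0.31 and 0.23. The shares were 42.9% and 21.4% in cluster 2 and 40% and 16% in cluster 3 (all genes, 26.1% and 25.4%). After removal of the GC trend they were 35.7% and 28.6% in cluster 2 and 24% and 20% in cluster 3 (all genes, 23.8% and 29.9%). The summed level did not overlap between the groups in clusters 3 and 5 and overlapped in clusters 1 and 2. The 11 members outside clusters had 4 higher and 4 lower of 9.

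The contrast between cluster 8 and cluster 9 was also expressed as a ratio within each library, which a single scaling factor per library cannot move. Quantile normalization is not such a factor, and under it the medians of clusters 8 and 9 stood 0.28 and -0.04 from that of all genes, against 0.52 and 0.08 on FPKM as deposited. The summed level of cluster 8 over that of cluster 9 was 0.165, 0.158 and 0.205 in the control libraries, against 0.311, 0.307 and 0.305 in the knockdown libraries. All sh-CLGN values lay above all sh-NC values (0.176 ± 0.0252 against 0.308 ± 0.00328, SD, n = 3, two-sided exact permutation test p = 0.1, the smallest that 3 against 3 libraries allow). This ratio was chosen after its values were seen. Sh-NC replicate 3 stood nearest to the sh-CLGN libraries.

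The plot of summed levels gives every library.

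**Figure D2:**
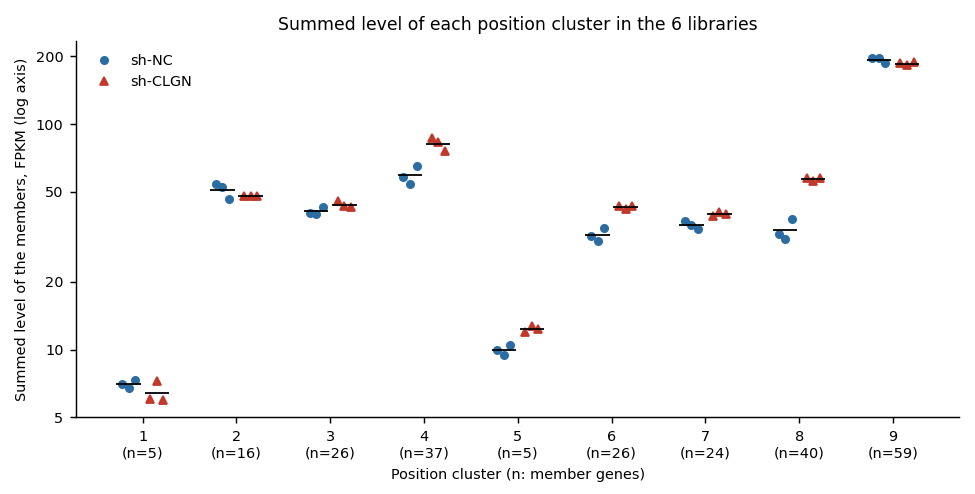
Summed FPKM of the members of each position cluster (log axis) in the 3 sh-NC (blue circles) and 3 sh-CLGN libraries (red triangles), with group means as lines. Cluster 8 moved from 33.9 to 57.0 FPKM without overlap, while in cluster 9 the groups overlapped in FPKM but not in RPM.

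The 8 higher members with the smallest adjusted p by limma on FPKM were in clusters 4, 5, 6 and 8, and their p-values on reads are given below. Of these, ZNF880 and ZNF610 passed the FPKM filter only through sh-CLGN, so their place among the 8 depends on that group. The fit on reads does not use that filter. ZNF880 (ENSG00000221923, chromosome 19, 52369917 to 52385795, plus strand, KRAB and 13 fingers) was at 1.39, 0.976 and 1.41 FPKM in the control replicates 1, 2 and 3 and reached 4.07, 3.63 and 3.66 FPKM in the knockdown libraries. All sh-CLGN libraries lay above all sh-NC libraries, a 3.03-fold difference on reads (log2 1.60, SE 0.158, voom adjusted p = 4.05e-09). Its neighbour ZNF610 (chromosome 19, 52336245 to 52367778, plus strand) was at 0.606, 0.773 and 0.620 FPKM in sh-NC and 2.06, 1.89 and 1.89 FPKM in sh-CLGN (2.91-fold, voom adjusted p = 3.49e-07). ZNF160 (chromosome 19, 53066606 to 53103436, minus strand, 20 fingers) was at 1.79, 1.77 and 2.34 against 4.60, 4.64 and 4.55 FPKM (2.34-fold, adjusted p = 1.90e-10). These 3 members of cluster 8 had under 3% of their 50-base windows in common with other genes and no exon overlap. The promoters of ZNF880 and ZNF160 printed above each hold CCGGAAG in capitals close to the start.

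In cluster 4, ZNF91 represses SVA retrotransposons and ZNF93 represses L1 elements. ZNF91 (chromosome 19, 23304991 to 23395560, minus strand, 32 fingers) was at 3.35, 3.09 and 3.94 FPKM in sh-NC and 7.72, 7.40 and 6.55 FPKM in sh-CLGN. The groups did not overlap, with a 2.09-fold difference (log2 1.06, SE 0.0886, voom adjusted p = 2.11e-10). ZNF93 (chromosome 19, 19900913 to 19963464, plus strand) was at 2.67, 2.23 and 2.59 against 5.50, 4.94 and 4.74 FPKM (2.03-fold, adjusted p = 1.08e-08). ZNF737 was at 1.40, 1.32 and 1.73 against 3.81, 3.59 and 3.40 FPKM (2.42-fold, adjusted p = 6.73e-08), with 10.9% of its windows shared and an exon overlap with 1 gene of its own strand. All 3 were higher in every sh-CLGN library than in any sh-NC library.

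ZNF260 of cluster 6 (chromosome 19, 36510695 to 36528660, minus strand), which has 13 fingers and no KRAB pattern, was at 2.29, 1.80 and 2.39 FPKM in sh-NC and 5.43, 5.41 and 5.68 FPKM in sh-CLGN. It was 2.56-fold higher (adjusted p = 9.62e-11), and it overlaps an exon of 1 gene on the opposite strand. After correction for GC content its log2 change on reads was 0.80, against 1.36. ZNF302 of cluster 5 (chromosome 19, 34677639 to 34686397, plus strand) was at 2.99, 2.87 and 2.83 against 6.11, 6.47 and 6.23 FPKM, a 2.16-fold difference (adjusted p = 4.06e-10). It shared 11.8% of its windows. ZNF121 of cluster 2 rose from 2.75 ± 0.527 to 5.64 ± 0.124 FPKM (2.08-fold, adjusted p = 6.50e-09), and in both genes the groups did not overlap.

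Lower members came from several clusters. ZNF627 of cluster 3 (ENSG00000198551, chromosome 19, 11559374 to 11619135, plus strand, KRAB and 11 fingers) was at 6.59, 6.59 and 6.84 FPKM in sh-NC and 3.45, 3.43 and 3.87 FPKM in sh-CLGN (0.536 of the control level, log2 -0.90, voom adjusted p = 3.44e-08). ZNF586 of cluster 9 (chromosome 19, 57769655 to 57819939, plus strand) was at 4.75, 5.15 and 5.57 against 2.75, 2.47 and 2.34 FPKM (0.489 of control, adjusted p = 1.08e-07). The groups did not overlap in either gene, but exons of ZNF586 overlap 2 genes on its own strand and 1 on the other, so its reads may be shared. ZNF628 was at 3.28, 3.36 and 3.19 against 1.55, 1.17 and 1.79 FPKM (0.453 of control, adjusted p = 4.13e-07), the largest fall among called members on reads, at a GC content of 70.8%. ZNF317 of cluster 2, whose printed promoter holds CCAAT letters on both strands, was at 9.64, 9.70 and 9.82 against 6.19, 6.66 and 6.10 FPKM (0.650 of control, adjusted p = 2.64e-07).

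ZNF792 of cluster 5 fell from 4.85 ± 0.351 to 2.87 ± 0.285 FPKM (adjusted p = 2.37e-06), against the direction of ZNF302 in the same cluster. ZNF428 of cluster 7, with 1 finger pattern, fell from 13.6 ± 2.57 to 7.74 ± 0.414 FPKM (adjusted p = 6.04e-06). ZNF581 fell from 10.5 ± 0.913 to 6.24 ± 0.683 FPKM (adjusted p = 7.03e-06), and 16.1% of its windows were shared. ZNF77, the called member of cluster 1, fell from 2.32 ± 0.358 to 1.63 ± 0.0166 FPKM (adjusted p = 0.0209), but limma on FPKM lost its call with read totals (adjusted p = 0.0979) and with the GC trend removed (0.0748). All 4 are values of voom on reads, and in each the groups did not overlap.

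The plot of these members shows the libraries one by one.

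**Figure D3:**
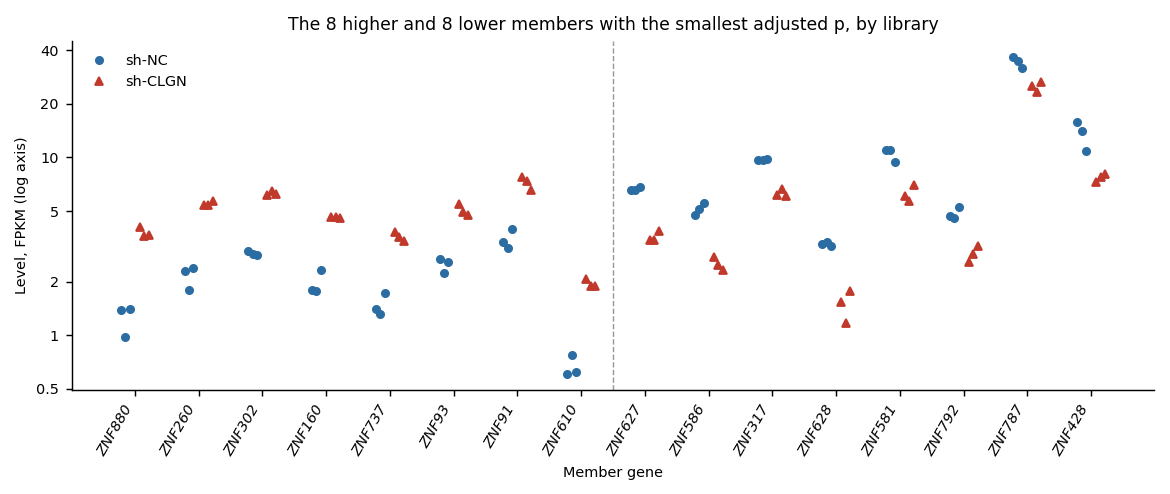
FPKM (log axis) in each sh-NC (blue circles) and sh-CLGN library (red triangles) of the 8 higher and the 8 lower members with the smallest adjusted p by limma. In all 16 the groups do not overlap, which their choice by p-value favours and which held for 70.2% of all 13074 genes tested. The lower members include the more abundant ZNF787, ZNF428, ZNF581 and ZNF317.

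The 8 most abundant members moved in both directions. ZNF787 (7 fingers, cluster 9) had the highest level and was at 36.9, 34.8 and 31.7 FPKM in control libraries and 25.1, 23.4 and 26.6 FPKM in knockdown libraries, without overlap (voom adjusted p = 4.40e-06). ZNF444, a SCAN protein, was at 19.1, 18.3 and 14.2 FPKM in sh-NC and 16.6, 16.1 and 18.0 FPKM in sh-CLGN, and the groups overlapped (adjusted p = 0.905). ZNF146, which consists almost wholly of zinc fingers, was at 16.1 ± 0.694 and 14.4 ± 0.659 FPKM (adjusted p = 0.0557 by voom and 0.0389 by limma on FPKM, the latter 0.0760 to 0.159 without sh-NC replicate 1, sh-NC replicate 3, sh-CLGN replicate 2 or sh-CLGN replicate 3), and its sign turned when FPKM was scaled by read totals. ZNF358 was at 16.1, 15.5 and 8.75 FPKM in sh-NC and 8.15, 8.17 and 8.95 FPKM in sh-CLGN, so that sh-NC replicate 3 lay with the sh-CLGN libraries (adjusted p = 0.00162, but limma on FPKM lost the call without sh-NC replicate 1, sh-NC replicate 2, sh-CLGN replicate 1 or sh-CLGN replicate 2, at an adjusted p of 0.0971, 0.0974, 0.0690 and 0.0660). ZNF714 of cluster 4 was at 6.88 ± 0.669 and 7.88 ± 0.275 FPKM (adjusted p = 0.0347 by voom but 0.0619 by limma on FPKM, and 0.699 with the GC trend removed from FPKM). Split into 4 ranges of mean level, 25 of 58 members of the lowest range (up to 0.706 FPKM) were higher and 0 lower, while in the highest range (2.78 to 29.8 FPKM) 24 of 58 were higher and 18 lower. All genes in the same ranges of level were 25.4% higher and 4.2% lower in the lowest, and 24.6% and 44.9% in the highest.

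Members under the FPKM filter were also among those called on reads. ZNF681 of cluster 4 had 15 to 29 reads in each control library but 80 to 106 in each knockdown library (0.225 ± 0.0616 and 0.857 ± 0.105 FPKM, voom adjusted p = 5.00e-07). ZNF546 rose from 0.224 ± 0.0686 to 0.667 ± 0.0691 FPKM, ZNF846 from 0.261 ± 0.0292 to 0.824 ± 0.130, and ZNF814 from 0.536 ± 0.114 to 1.17 ± 0.154 with 27.0% of its windows shared. ZNF224, a repressor of aldolase A, rose from 0.465 ± 0.0599 to 1.01 ± 0.0421 FPKM (adjusted p = 8.06e-06). Of the lower ones, ZNF649 fell from 1.11 ± 0.221 to 0.643 ± 0.0907 FPKM, ZNF333 from 0.879 ± 0.0718 to 0.615 ± 0.0597 and ZNF433 from 1.01 ± 0.0481 to 0.677 ± 0.238 (adjusted p = 0.00288, 0.00304 and 0.0363). Just inside the filter by mean level were ZNF404 (0.287 ± 0.0977 and 1.40 ± 0.183 FPKM), ZNF493 (0.308 ± 0.0546 and 1.15 ± 0.0831) and ZNF235 (0.528 ± 0.145 and 1.37 ± 0.222). Just outside it were ZNF726 (1.11 ± 0.257 and 0.935 ± 0.0581), ZNF773 (0.999 ± 0.0606 and 0.897 ± 0.133) and ZNF446 (0.965 ± 0.237 and 0.908 ± 0.189). The 3 inside passed only through sh-CLGN, so nothing is read from the contrast with the 3 outside.

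Changes were associated with the GC content of the transcripts. Members ranged from 34.3% to 71.0% GC (median 44.1%, against 48.9% over tested genes), and the log2 change on reads had a Spearman rho of -0.49 with GC over the 230 members, which share the same 6 libraries. Over all 13074 genes tested on FPKM rho was -0.33, and over the 153 members it was -0.56. Below 42% GC 49 of 68 members were higher and 1 lower (all genes in that range, 39.8% and 10.8%), and from 50% up 1 of 30 was higher and 14 lower (all genes, 18.6% and 34.2%). From 42% to under 46%, where clusters 8 and 9 can be compared at a like GC content, 16 of 22 members of cluster 8 were higher (median 0.94) and 2 of 9 members of cluster 9 (median 0.14), with a median of 0.22 over all genes in that range. Below 42% the order was the other way, with 7 of 12 higher in cluster 8 (median 0.58) and 2 of 2 in cluster 9 (median 0.95), and from 46% to under 50% it was 2 of 2 (median 0.43) and 11 of 28 (median 0.28). With the GC trend removed from the reads, 89 members were higher and 29 lower with a median of 0.20. These were 38.7% and 12.6% of the 230 members, against 23.8% and 29.9% of all genes (median 0.018). The medians were then 0.41 in cluster 8, 0.41 in cluster 6, 0.38 in cluster 7, 0.24 in cluster 4 and 0.04 in cluster 9.

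**Figure D4:**
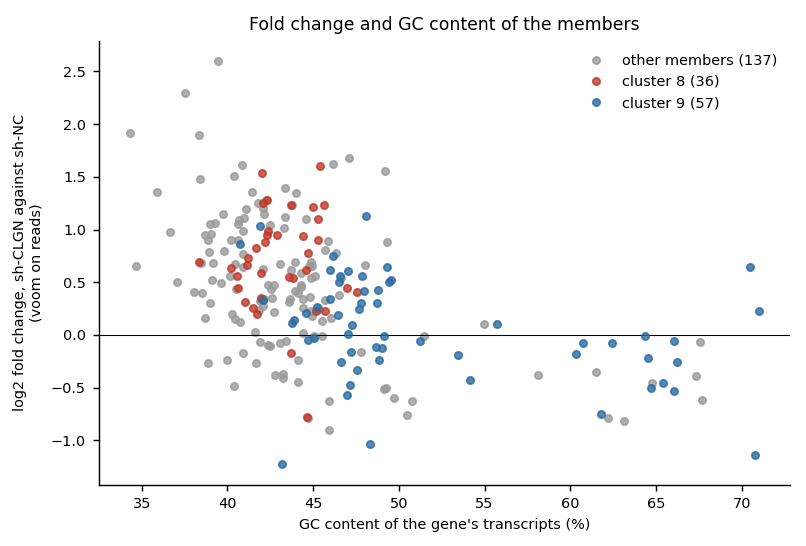
Log2 fold change (sh-CLGN against sh-NC, voom on reads) against the GC content (%) of the transcripts for 230 members, with cluster 8 in red, cluster 9 in blue and the others in grey. Most members of cluster 9 lie at 46% GC or more, and those above 50% are mostly at or below 0.

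The tilt was also present within the control group. Set against the mean of the other 2 sh-NC libraries, sh-NC replicate 3 had a median log2 difference of 0.17 over members and 0.0027 over all genes, 0.26 in cluster 8 and -0.0030 in cluster 9, and its difference had a rho of -0.35 with GC over members. The other sh-NC libraries were at -0.03 and -0.09, and the sh-CLGN libraries at -0.04 to 0.04. Replicate 3 of sh-NC leaned in the direction of the sh-CLGN libraries, and without it 123 members were higher and 27 lower on reads. The part of GC content in the difference between the groups was not tested further.

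Shared sequence limits single values. Exons of 140 members overlap another gene, 24 members had more than 25% of their windows in common with other genes, and how reads that fit several genes were assigned is not given in the sources used here. Among 82 tested members with under 5% shared windows and no exon overlap, 43 were higher and 13 lower (median 0.33). Of these, 11 of 14 in cluster 8 were higher and 0 lower, 8 and 1 of 11 in cluster 4, 6 and 0 of 7 in cluster 6, 7 and 0 of 7 in cluster 7, and 5 and 5 of 22 in cluster 9. The log2 changes of consecutive members of a cluster had a Spearman rho of 0.30 over 212 pairs, and of 0.10 once the median of each cluster was subtracted. Members with the KRAB pattern had 91 higher and 13 lower of 168 (median 0.44) and those without it 28 and 13 of 62 (median 0.11), at a median GC content of 43.7% and 48.0%. With the GC trend removed the shares higher were both 38.7% (65 of 168 and 24 of 62, medians 0.23 and 0.095), against 23.8% of all genes. The shares lower were then 10.1% (17 of 168) and 19.4% (12 of 62), against 29.9% of all genes. In members with 17 or more fingers 29 of 46 were higher and 3 lower (63.0% and 6.52%). In those with 8 or fewer it was 13 and 10 of 46 (28.3% and 21.7%, all genes 26.1% and 25.4%). Their median GC content was 42.1% and 46.7%. After removal of the GC trend the counts were 21 and 3 of 46 (45.7% and 6.52%) with 17 or more fingers. They were 11 and 8 of 46 (23.9% and 17.4%) with 8 or fewer, against 23.8% and 29.9% of all genes. The 3′ UTR of 30 members held a site for the seed of the sh-CLGN hairpin, whose target is given in the study's methods. Of these 30 on reads 16 were higher and 5 lower, against 103 higher and 21 lower of the 200 tested members without a site.

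Other groups of genes served as reference. ZNF genes on other chromosomes had 77 higher and 62 lower of 233 on reads (33.0% and 26.6%, median 0.03). The summed level of the members over that of these genes was 0.552, 0.535 and 0.546 in the control libraries, against 0.672, 0.656 and 0.649 in the knockdown libraries, without overlap (two-sided exact permutation test p = 0.1, the smallest possible, ratio chosen after its values were seen). Other protein-coding genes of chromosome 19 had 124 higher and 395 lower of 853 (median -0.24). With the GC trend removed from reads, these genes had 202 higher and 338 lower of 853 (median -0.0996). Their shares were then 23.7% and 39.6%, against 23.8% and 29.9% of all genes. The non-member coding genes inside the cluster spans had 23 higher and 23 lower of 97 (median 0.13, median GC 55.9%). With the GC trend removed these neighbours had 32 higher and 22 lower of 97 and a median of 0.20, the same as the 0.20 of the members, while ZNF genes on other chromosomes had 57 higher and 68 lower (median -0.08). Of the 97 neighbours, 36 lay in cluster 2 and 25 each in clusters 7 and 9, but 0 in cluster 4 and 4 in cluster 6. Only 2 neighbours lay in cluster 8, of which 1 was higher. On reads without the correction 7 neighbours were higher and 6 lower in cluster 2, 4 and 11 in cluster 7, and 7 and 4 in cluster 9. The pooled median of the neighbours thus says little about clusters 4, 6 and 8.

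**Figure D5:**
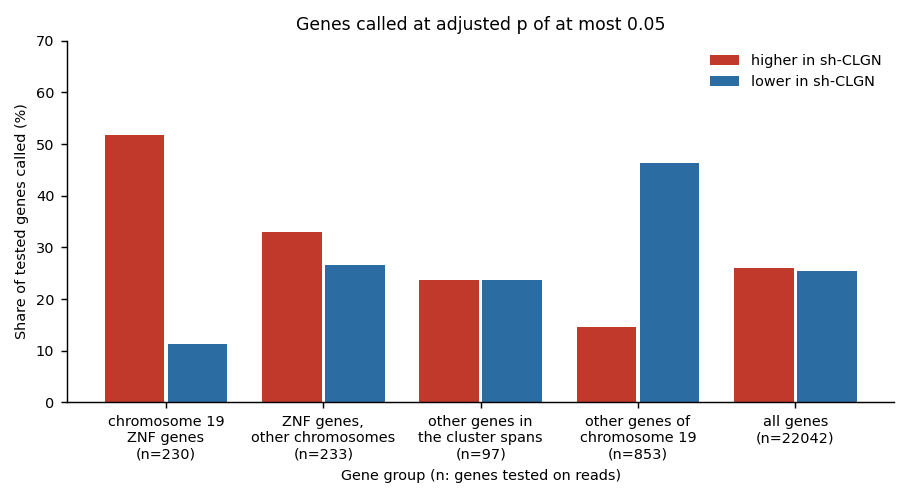
Percent of genes called higher (red) and lower (blue) in sh-CLGN at an adjusted p of at most 0.05 (voom on reads) in 5 gene groups, with the number tested under each. Members reached 51.7% higher and 11.3% lower, ZNF genes of other chromosomes 33.0% and 26.6%, and all genes 26.1% and 25.4%.

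Of 17 zinc finger genes of chromosome 19 with other names, such as ZFP, ZIK and ZSCAN genes, 16 were found and 11 tested on reads, with 6 higher and 1 lower. These shares (54.5% and 9.09%, median 0.46) were near those of the members (51.7% and 11.3%, median 0.40), so the tilt was not particular to the ZNF symbol. On FPKM, 4 of 9 were higher and 1 lower. MZF1, a myeloid transcription factor with a SCAN domain, rose from 1.41 ± 0.068 to 3.66 ± 0.529 FPKM and ZSCAN5A from 1.17 ± 0.174 to 2.71 ± 0.109. ZFP30 fell from 1.65 ± 0.109 to 1.07 ± 0.126 FPKM (limma adjusted p = 0.00743).

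Of 31 genes for proteins with which KRAB zinc finger proteins act, 7 were higher and 13 lower (22.6% and 41.9%, limma adjusted p on FPKM, median -0.09), shares near those of all genes tested (26.7% and 39.0%, median -0.08). TRIM28, the corepressor bound by the KRAB domain, was at 160, 162 and 138 FPKM in sh-NC and 110, 110 and 113 FPKM in sh-CLGN. It fell by 0.46 on the log2 scale (adjusted p = 0.000561), or by 0.20 with the GC trend removed, and without overlap. With quantile normalization it fell by 0.13 and was not called (adjusted p = 0.0770). The maintenance methyltransferase DNMT1 fell from 36.1 ± 2.77 to 22.2 ± 1.42 FPKM, its partner UHRF1 from 24.6 ± 1.41 to 16.6 ± 1.16, and HDAC1 from 83.2 ± 0.716 to 56.3 ± 1.26. ATRX, a chromatin remodeller found at the 3′ ends of zinc finger genes, was at 1.47, 1.44 and 1.58 FPKM in control libraries and 5.36, 5.33 and 5.52 FPKM in knockdown libraries (log2 1.36, adjusted p = 2.76e-06), and MPHOSPH8, a subunit of the HUSH silencing complex, from 5.69 ± 0.196 to 10.2 ± 0.0594. SETDB1 was at 6.36 ± 0.308 and 5.57 ± 0.136 FPKM (adjusted p = 0.0359), and its difference vanished when FPKM was scaled by read totals (log2 change 0.0031). Its call was also lost with the GC trend removed (adjusted p = 0.600) and without any 1 library other than sh-NC replicate 2 (0.0705 to 0.116). ZNF274, a member that recruits SETDB1 to zinc finger genes, was at 5.79 ± 0.168 and 5.08 ± 0.269 FPKM (voom adjusted p = 0.0414, named for its role after its value was seen). The other partners that were higher were CHD3 (log2 change 0.67), PPHLN1 (0.42), CBX3 (0.30), SMARCAD1 (0.18) and CBX5 (0.17). With the GC trend removed from reads CBX3 was at -0.0067 (voom adjusted p = 0.933), and from FPKM at 0.15 (limma adjusted p = 0.0396). CHD3 and PPHLN1 stayed higher and called in both of these fits. SMARCAD1 turned to -0.11 with the GC trend removed from FPKM, and CBX5 was at 0.070 (adjusted p = 0.0994). Both lost the call whenever 1 library other than sh-NC replicate 3 was left out (adjusted p of 0.0574 to 0.162 for SMARCAD1 and 0.0557 to 0.110 for CBX5). Among those that were lower were TRIM24 (-0.55), DNMT3B (-0.53), SUV39H1 (-0.51), CHD4 (-0.44), CBX1 (-0.38, not called with quantile normalization, adjusted p = 0.165), EHMT1 (-0.23) and DNMT3A (-0.23). With the GC trend removed EHMT1 was at 0.0034 and DNMT3A at -0.00041 (adjusted p = 0.954 and 0.995), and both also lost the call with read totals (adjusted p = 0.359 and 0.419). DNMT3A lost it with quantile normalization too (0.0665), and EHMT1 without sh-CLGN replicate 2 (0.0555). On reads, 7 partners were higher and 14 lower (22.6% and 45.2%), against 26.1% and 25.4% of all genes. After the GC correction of reads 5 were higher and 21 lower (16.1% and 67.7%, all genes 23.8% and 29.9%). The partners had a median level of 12.6 FPKM. All genes in the highest range of level above were 24.6% higher and 44.9% lower on reads, and 20.1% and 52.6% after that correction.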

How the data were processed

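Messenger RNA of 6 Hep-G2 libraries (NEBNext Ultra kit) was sequenced, and the authors deposited 1 table of FPKM per gene and library. Per the submitters' processing notes, HISAT2 2.0.5, featureCounts and GRCh38 were used. The strandedness, the handling of reads that fit several genes and the authors' test are not given in the sources used here. All gene positions equalled GENCODE 29. The deposited FPKM times gene length gave whole reads (100% of values within 0.01 of a read), with 14955816 to 16244639 reads per library. Groups came from the labels, KD columns being sh-CLGN. limma 3.58.1 (R 4.3.3, eBayes with trend) was run on log2(FPKM + 1) for genes reaching 1 FPKM in 3 or more libraries, and voom on recovered reads with deposited library sizes for genes with at least 10 reads in all, p-values being two-sided with Benjamini-Hochberg adjustment over all genes tested. The count models of other packages were not used, since the deposited unit is FPKM, and voom was the test applied to the recovered reads. GC content, exons, protein patterns and shared 50-base windows came from GENCODE 29 (Python 3.11.15, pandas 2.3.3), and promoters from RefSeq.

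The members, lists and tests were chosen with earlier results of these data known. Named members are those past both thresholds, the 8 higher and 8 lower with the smallest adjusted p, the 8 most abundant, the member called on FPKM with the largest change of each cluster, the 3 on each side of the FPKM filter, up to 5 each way called on reads below that filter, and the silencing partners called, of which 1 is not reported here. Ratios of summed levels and names outside this rule were chosen after their values were seen. The alternatives were another pseudocount, 2 other filters, 2 scalings, a GC correction (lowess span 0.3), a replicate block, each library left out and other cluster gaps. The procedures were tested on simulated data.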

Additional observations from a re-analysis of the deposited data

Results flagged for a closer look

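Outside the protein-coding members, 32 other genes of chromosome 19 carry ZNF symbols and are annotated as pseudogenes or other non-coding classes, and no comparison above used them. Their reads summed to 49.9, 51.7 and 57.2 RPM (reads scaled to a common library total) in sh-NC and 71.6, 69.7 and 65.0 RPM in sh-CLGN, above the level of every control library, a ratio of means of 1.30. The ratio for the members was 1.35. With read totals as library sizes, all 22042 genes tested on reads had a median log2 change of 0.30. The groups did not overlap in 70.2% of all genes tested on FPKM. Such genes resemble the members in sequence, and whether their reads come from them was not tested.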

How the results depend on the processing

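The direction of the median over members and of CLGN was the same in every alternative run on them. On FPKM, the count of higher members (74) was 119 with voom on reads and 41 to 80 when 1 library was left out, lowest without sh-CLGN replicate 2 (42 without replicate 1, 47 without replicate 3), where fewer members passed the filter. The count of lower members (22) was 12 with scaling by read totals, and 17 to 23 with a library left out. Past both thresholds, 2 higher members became 18 at a pseudocount of 0.1, 6 with read totals, 39 with voom, 1 each with quantile normalization and with GC correction, and 0 to 3 with a library left out (0 without sh-NC replicate 2). The lower ones (0) became 2 at a pseudocount of 0.1 and 2 with voom. The median (0.24) was 0.33 at a pseudocount of 0.1, 0.37 with read totals, 0.13 with quantile normalization, 0.40 with voom and 0.18 to 0.28 with a library left out. On reads, 26 lower members became 14 with read totals, and leaving out a library gave 98 to 123 higher and 22 to 27 lower. Correlations of deviations between libraries with the same number were -0.02, -0.05 and -0.15, so the numbers do not pair the libraries. With a replicate block 65 members were higher and 20 lower on FPKM, and 115 and 24 on reads. ZNF146, SETDB1 and CBX5 were not called under the block. Gaps of 0.5 and 2 Mb gave 10 and 6 clusters. Signs turned for ZNF444 (0.17 with read totals, 0.20 with quantile normalization, 0.29 with GC correction, and from -0.14 to 0.062 with a library left out, above 0 without sh-NC replicate 1, sh-NC replicate 2 or sh-CLGN replicate 2), for ZNF146 (0.027 with read totals, 0.047 with quantile normalization), for SETDB1 (0.0031 with read totals), and with GC correction for SMARCAD1 (-0.11) and EHMT1 (0.0034). Among the repeats for single genes, 555 stayed on the same side, 48 lost and 4 gained the call and 11 turned. The cause of these shifts was not tested. With 10 to 40 reads per library, as for the lowest members, counting error limits the size of a fold.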
